A study of Zea mays with 18 samples.

Results

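The genes described here are 100 of the 38300 genes measured in young maize kernels, chosen because their read level was highest in the endosperm 2 days after pollination (DAP). Read levels are in CPM, read counts scaled by library and not by gene length, so that orders of genes by CPM are orders of reads. A gene qualified when each of the 3 endosperm libraries of 2 DAP had at least 5 CPM, which 12261 genes met. It was then scored as its mean at 2 DAP plus 1, divided by the highest of its means at 0, 1, 3 and 4 DAP plus 1. The 100 highest scores were taken, after leaving out 4 listed genes that met the floor, so that 12257 genes were ranked. All 5 endosperm stages entered this choice, so the height of the peak is a description and carries no test. The study covers inbred B73, grown in a greenhouse, with no transgene or treatment in any group. Its groups are embryos of 4 DAP, the central cell before pollination (0 DAP, from unfertilized ears) and the endosperm of self-pollinated ears at 1, 2, 3 and 4 DAP, each with 3 libraries. Tissue was cut out by laser capture, and every library pooled sections of several kernels of a single ear. The embryo libraries took no part in the choice of the genes.

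Endosperm is the nourishing tissue of the cereal kernel. It arises when a sperm cell fertilizes the central cell of the embryo sac. Its nuclei first divide without walls forming between them, so the earliest endosperm is a multinucleate cell, and walls and specialised layers such as the transfer layer and the aleurone form afterwards. For most of the 100 genes the reference table used here gives only an identifier: 57 matched an entry, and 7 had a gene name. The named ones are a plant-specific histone deacetylase (HDT1), 2 ribosomal protein genes (rps24 and rpL17), a glutamine synthetase (gln1), the transcription factor genes THX11 and bZIP103, and a gene named only peptidase.

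The libraries held 7688120 to 124078873 recovered reads, and the lowest depth in the 2 DAP group was 81035626. The scaled column totals were highest at 2 DAP, from 1156765 to 1241738, against 1034389 to 1122251 at 3 DAP. In plain CPM, with the same total in every column, the 100 genes scored from 1.30 to 5.55 with a median of 1.56, where the deposited values gave a median of 1.79. Scores above 1 were ensured by the choice, which took none below 1.67. The factors to plain CPM differed by less, from 0.805 at 2 DAP to 1.17 at 1 DAP. Of the 100 genes, 73 were also among the 100 highest scores in plain CPM. RNA of the libraries up to 2 DAP and of the embryo was measured by another method than RNA of the 3 and 4 DAP endosperm. That step and the stage cannot be told apart between 2 and 3 DAP, nor between 1 and 3 DAP. Between the embryo and the endosperm of 4 DAP, that step and the tissue cannot be told apart. The endosperm marker fie1, a Polycomb gene, was at 119.6 CPM at 2 DAP and 2.88 CPM in the embryo. Listed with it were meg1 and mrp1, the latter a regulator of transfer cells rather than a marker of all endosperm. At 2 DAP meg1 was at 0.003 CPM and mrp1 at 3.20 CPM, after 35.7 CPM of mrp1 at 0 DAP. All 4 models of the transfer-layer list, which leaves out mrp1, and all 3 models of the embryo-surrounding region were under 1 CPM at 2 DAP. Of the aleurone markers, nkd1 and nkd2 were at 0.5 and 0 CPM at 2 DAP and vpp1 at 3.76 CPM. Of 5 embryo marker models 4 were under 1 CPM at 2 DAP, and their summed level was 1.07 to 2.88 CPM. Of 4 ovule markers 2 matched, zag1 and zag2, with 1.64, 2.30, 0.683, 0.045 and 0.150 CPM of zag1 and 79.7, 50.1, 23.2, 5.68 and 2.02 CPM of zag2 at 0 to 4 DAP. Of the 6 embryo-sac models, es1, es2 and es4 were near 0 at 2 DAP, while EBE-1 and EBE-2 were at 71.0 and 799.6 CPM and so were themselves highest at that stage. The part of any of these cell types in the results was not tested. In pooled tissue, fewer cells of a type and less RNA per cell cannot be told apart.

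Sharp peaks were few. Only 3 of the 100 genes scored above 3 and 19 above 2, and the score was 6.33 at rank 1, 2.29 at rank 10, 1.80 at rank 50 and 1.67 at rank 100. The endosperm of 3 DAP was the second-highest stage for 72 genes, against 13 for 1 DAP, 9 for 0 DAP and 6 for 4 DAP. In the median gene the mean was 26.6% of its 2 DAP level at 0 DAP, 42.5% at 1 DAP, 53.2% at 3 DAP and 32.9% at 4 DAP. At 3 DAP, 69 genes kept more than 50% of their 2 DAP mean and only 2 were under 10%. The rule capped these shares, since the lowest score taken was 1.67, and the highest share at 3 DAP was 59.9%. Nothing about the 3 DAP stage is read from the crowding under that cap. In 73 genes the means went up through 0, 1 and 2 DAP and down through 3 and 4 DAP. The shares of all ranked genes with this order, or with 3 DAP second, were not taken. Nothing particular to the 100 genes is read from the 73 or the 72. The summed level of the 100 genes was 5103 to 6228 CPM per library at 0 DAP and 6829 to 10494 at 1 DAP. It was 20124 to 23026 at 2 DAP, 10075 to 13240 at 3 DAP and 6155 to 7466 at 4 DAP. The rule ensured that the mean of this sum was highest at 2 DAP, so nothing is read from its height. Genes with many reads also weigh most in the sum. GRMZM2G096585 alone averaged 5177 CPM at 2 DAP, against a median of 32.75 CPM over the 100 genes.

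**Figure D1:**
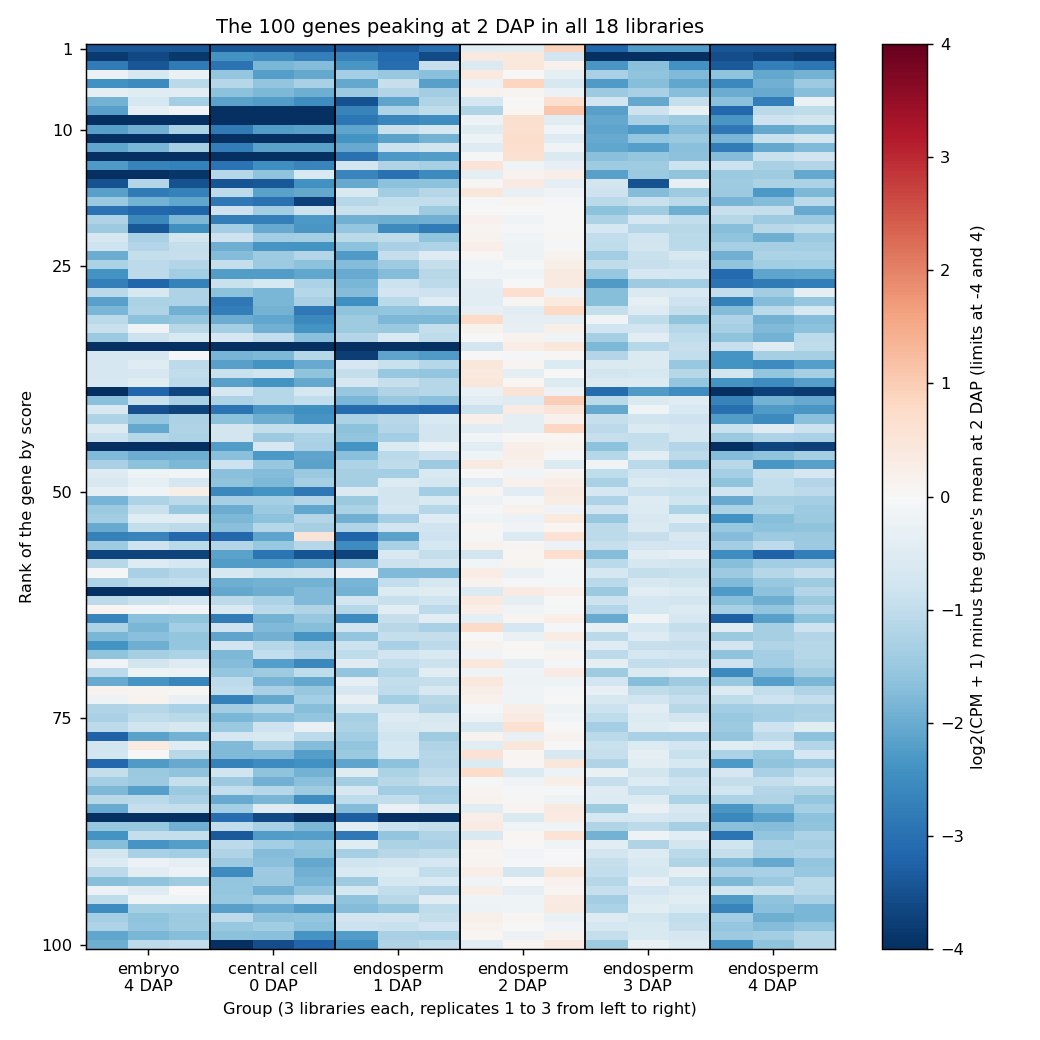
Each row is 1 of the 100 genes, ordered by score, and each column is 1 of the 18 libraries; colour gives log2(CPM + 1) minus the gene's mean at 2 DAP. The 2 DAP columns are the palest, most 3 DAP cells are light blue, and dark rows mark genes near 0 in the embryo, the central cell or both.

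The 3 libraries of 2 DAP varied by a median of 24.1% of their mean (coefficient of variation), from 1.85% to 75.4% over the genes, and 8 genes varied by more than 50%. In 75 of the 100 genes every 2 DAP library was above all 12 other endosperm libraries. The same was true of 5.72% of the 12257 ranked genes, and nothing is read from the difference, since the rule chose it. The other 25 genes had an overlap, in 19 of them with a library of 3 DAP. Replicate 2 at 3 DAP reached the lowest 2 DAP library in 13 genes, replicate 3 in 8 and replicate 1 in 4. Each library of the 0, 1 and 4 DAP groups reached it in 4 genes or fewer. The levels spanned a wide range, from 6.36 to 5177 CPM at 2 DAP with a median of 32.7 CPM, and 26 genes were at 100 CPM or more.

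**Figure D2:**
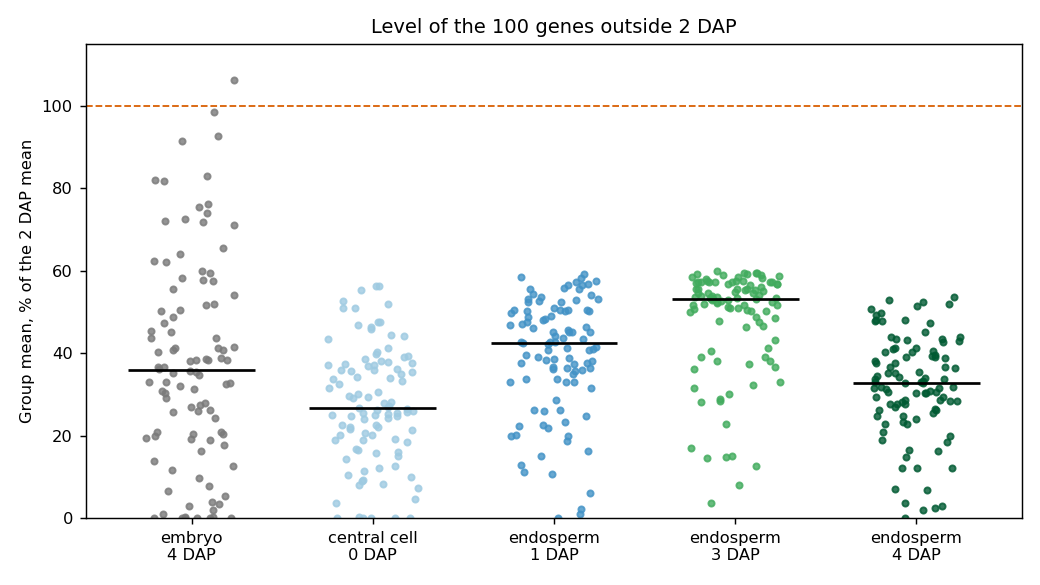
Each point is 1 of the 100 genes, and its height is the group mean in % of the gene's 2 DAP mean (dashed line at 100), with a black line at the median of each group. The genes crowd just under 60% at 3 DAP, a cap that the rule set for every other endosperm stage. The medians are 26.6% at 0 DAP and 32.9% at 4 DAP, and the genes spread from 0% to 106% in the embryo.

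The choice was repeated without 1 replicate number at a time, and the genes chosen were then read in the libraries left out. Genes chosen without replicate 1 were highest at 2 DAP in the replicate 1 libraries in 94 of 100 cases, against 34.0% of all genes past the floor. For replicate 2 the number was 92, against 26.6%, and for replicate 3 it was 87, against 35.7%. The scores were lower in the libraries left out. Their median was 1.60 against 1.79 in the libraries used for replicate 1, 1.31 against 1.98 for replicate 2 and 1.49 against 1.83 for replicate 3. Genes chosen in this way were thus mostly highest at 2 DAP in the libraries left out too, at a smaller size, while the exact members changed. The libraries left out share the column scaling of 2 DAP and the change in how RNA was measured between 2 and 3 DAP. Those and the stage cannot be told apart here, and nothing about the cause of the peak is read from the counts. Of the 100 genes, 64, 68 and 61 were chosen again without replicates 1, 2 and 3.

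**Figure D3:**
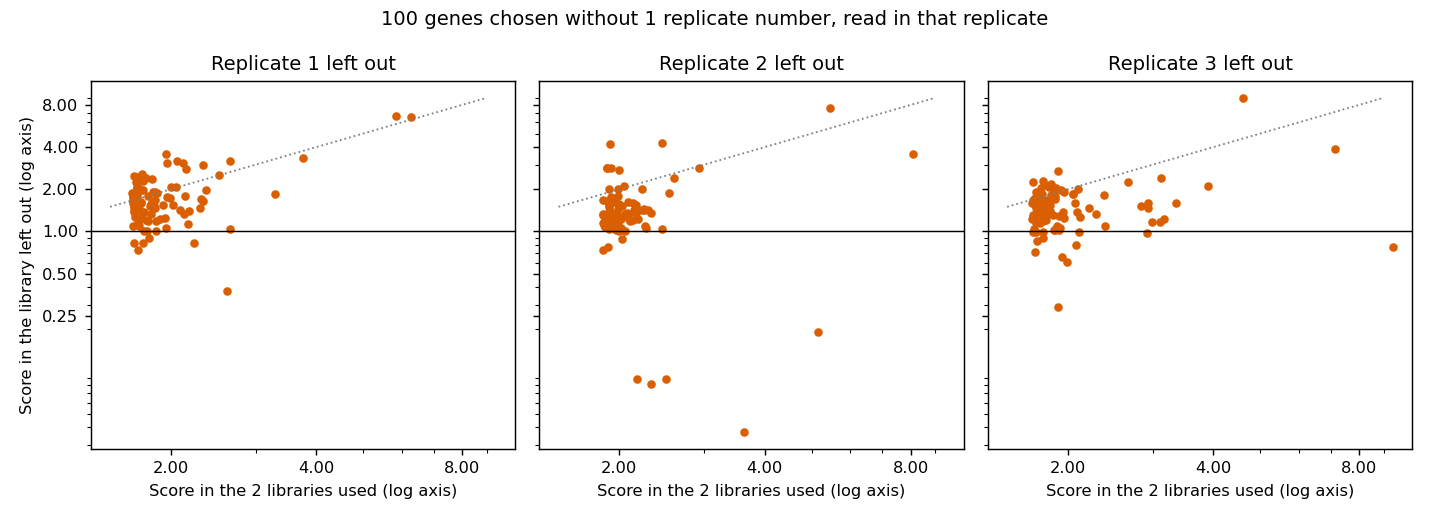
Each panel shows 100 genes chosen without 1 replicate number, with the score in the libraries used on the x axis and the score in the libraries left out on the y axis (both log axes). Points above the solid line at 1 peak at 2 DAP in the libraries left out (94, 92 and 87 genes). The median score of the libraries left out was 1.60, 1.31 and 1.49, and the dotted line marks equal scores.

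The sharpest peaks belonged to genes of which the reference table names none. GRMZM2G472100 had the highest score (6.33) and was close to silent outside 2 DAP. Its libraries gave 0, 0.0577 and 0.290 CPM at 1 DAP, 6.80, 6.91 and 18.9 CPM at 2 DAP and 0.198, 1.21 and 1.22 CPM at 3 DAP. No read of it was counted in any of the 9 libraries of 0 DAP, 4 DAP and the embryo, which at 3 reads per library allows up to 0.0731 CPM at 0 DAP, 0.0406 CPM at 4 DAP and 0.267 CPM in the embryo. Replicate 3 was well above the other two at 2 DAP, and no library of another stage came near. GRMZM2G162798 was present at every stage and highest by far at 2 DAP. It had 61.4, 57.3 and 48.5 CPM at 0 DAP, 49.3, 37.3 and 26.4 CPM at 1 DAP and 418, 439 and 189.6 CPM at 2 DAP. It then had 7.13, 16 and 16.9 CPM at 3 DAP and 26.8, 24.8 and 22.8 CPM at 4 DAP. The libraries of 2 DAP stood well above those of every other stage, and the level at 3 DAP was the lowest of the series.

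GRMZM2G039365 had 6.19, 13.2 and 10.9 CPM at 2 DAP, and its means were 1.53, 2.03, 1.49 and 0.367 CPM at 0, 1, 3 and 4 DAP. One library of 1 DAP, at 4.68 CPM, came close to the lowest library of 2 DAP. GRMZM2G062638 had a broad base under its peak, with 170.3, 132 and 99.9 CPM at 2 DAP and means of 34.3, 45.4, 44.4 and 36.2 CPM at 0, 1, 3 and 4 DAP. GRMZM2G519665 had the same outline with fewer reads, at 20.9, 20.5 and 16 CPM at 2 DAP and at most 6.96 CPM as the mean of another endosperm stage. GRMZM2G044720 was led by 1 library, with 10.4, 23.5 and 7.72 CPM at 2 DAP against means of 2.36 to 4.38 CPM in the other endosperm stages. GRMZM2G412503 and GRMZM2G099408 overlapped with other stages despite ranks 7 and 8. GRMZM2G412503 had 9.03, 15.6 and 25.1 CPM at 2 DAP and 4.13, 1.39 and 12.7 CPM at 4 DAP. GRMZM2G099408 had 7.07, 18.7 and 39.4 CPM at 2 DAP, where the lowest library lay within the range of 3.10, 9.40 and 14 CPM at 3 DAP.

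**Figure D4:**
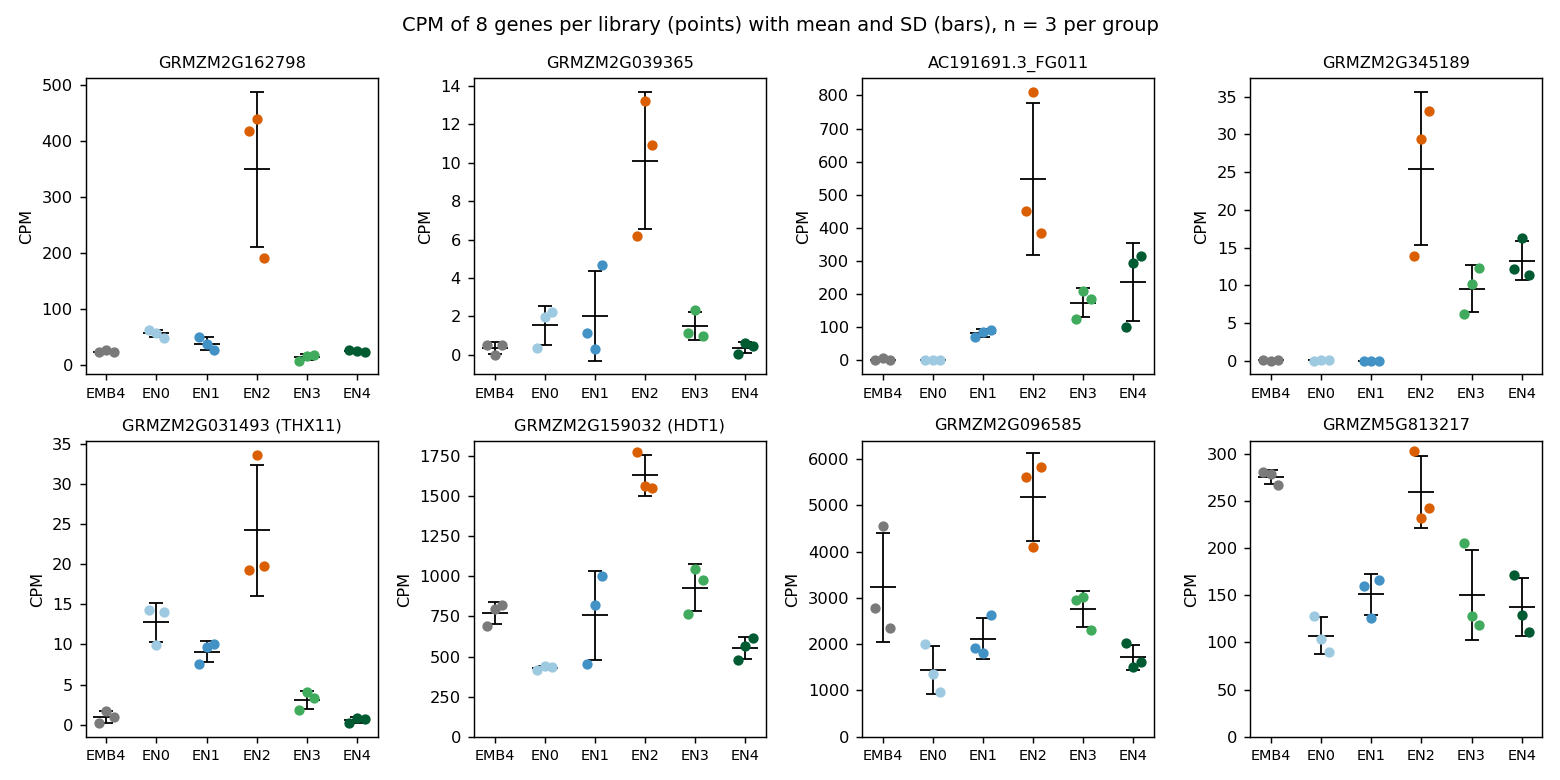
CPM per library (points) with mean and SD (bars, n = 3) for 8 genes in the embryo of 4 DAP (EMB4) and the central cell or endosperm at 0 to 4 DAP (EN0 to EN4). GRMZM2G162798 and GRMZM2G039365 are highest by far at 2 DAP, AC191691.3_FG011 and GRMZM2G345189 stay on in later endosperm but are near 0 in the embryo, and GRMZM5G813217 in the embryo lies within its 2 DAP range.

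A group of 8 genes was under 10% of its 2 DAP mean both in the embryo and in the central cell: AC191691.3_FG011, GRMZM2G333035, GRMZM2G172300, GRMZM2G345189, AC217264.3_FG001, GRMZM5G874903, GRMZM2G173063 and GRMZM2G472100. AC191691.3_FG011, with the most reads of the 8, had 0, 5.99 and 1.51 CPM in the embryo. In the endosperm series it had 0.235, 2.26 and 0.755 CPM at 0 DAP, 69.6, 84.6 and 93 CPM at 1 DAP and 450.02, 811 and 385 CPM at 2 DAP. It then had 126, 211 and 185 CPM at 3 DAP and 102, 295 and 314 CPM at 4 DAP. Every endosperm library from 1 DAP on was at least 10 times any central cell or embryo library. GRMZM2G345189 came on a day later. It had no read in the 3 libraries of 1 DAP, where the shallowest library allows up to 0.335 CPM, and 13.9, 29.3 and 33.1 CPM at 2 DAP. It kept 6.14, 10.2 and 12.3 CPM at 3 DAP and 12.2, 16.2 and 11.4 CPM at 4 DAP, where replicate 2 was above the lowest 2 DAP library. AC217264.3_FG001 followed the same course and faded sooner, with 1.78, 0.0288 and 0.0544 CPM at 1 DAP, 31.8, 17 and 32.7 CPM at 2 DAP, 15.8, 15.9 and 15.1 CPM at 3 DAP and 3.55, 4.96 and 7.71 CPM at 4 DAP. GRMZM2G173063 had no read in the 3 embryo libraries and had 6.82, 12.9 and 19.9 CPM at 2 DAP.

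A group of 7 genes, among them GRMZM2G472100 and GRMZM2G173063 of the 8 above, was at less than 10% of its 2 DAP mean in the endosperm of 4 DAP, and all 7 were also under 10% of it in the embryo. They are GRMZM2G472100, GRMZM2G162798, GRMZM2G039365, GRMZM2G003059, GRMZM2G376548, GRMZM2G173063 and THX11 (GRMZM2G031493). GRMZM2G162798 still had a mean of 24.8 CPM on that day, above its 13.3 CPM at 3 DAP. THX11 belongs by name to the trihelix family of plant DNA-binding regulators. It had 14.3, 9.96 and 14 CPM at 0 DAP, 7.58, 9.66 and 10.1 CPM at 1 DAP and 19.2, 33.6 and 19.8 CPM at 2 DAP. It then had 1.88, 4.08 and 3.34 CPM at 3 DAP and 0.193, 0.839 and 0.732 CPM at 4 DAP. It was thus present in the central cell, and every library of 3 and 4 DAP lay below every central cell library. Among 13 models with a trihelix name, 2 reached the floor of 5 CPM at 2 DAP. The other, THX39 (GRMZM2G001272), had its highest endosperm mean at 4 DAP, at 31 CPM. GRMZM2G376548 had means of 7.58, 10.6, 20, 7.84 and 0.430 CPM at 0 to 4 DAP. GRMZM2G003059 had means of 3.81, 2.95, 8.21, 1.89 and 0.255 CPM at 0 to 4 DAP. The summed level of the ovule genes zag1 and zag2 was 68.7 to 93.6 CPM at 0 DAP, 45.2 to 60.4 at 1 DAP, 20.6 to 28.6 at 2 DAP, 2.30 to 10.9 at 3 DAP and 0.527 to 4.47 at 4 DAP, and its part in these values was not tested.

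The stage that came second divided the genes further. In 9 genes it was the central cell, so that their means were lower at 1 DAP before the peak, in GRMZM2G360523 by little. They are GRMZM2G162798, GRMZM2G044720, GRMZM2G021998, GRMZM2G360523, GRMZM2G003059, THX11, GRMZM2G145562, GRMZM5G869779 and GRMZM2G129162. Of these 9, 6 were under 10% of their 2 DAP mean in the embryo. So were 4 of the 6 genes whose second stage was 4 DAP, 3 of the 13 with 1 DAP and 4 of the 72 with 3 DAP. The share over all ranked genes was not taken, and nothing is read from these counts. GRMZM2G360523 had means of 11.3, 11, 23.8, 6.89 and 9.66 CPM at 0 to 4 DAP and 1.89 CPM in the embryo. GRMZM5G869779, at 79.1 CPM at 2 DAP, kept more in the embryo, with a mean of 47.4 CPM. In 6 genes the second stage was 4 DAP, namely AC191691.3_FG011, GRMZM2G333035, GRMZM2G172300, GRMZM2G345189, gln1 and rpL17, although the means of gln1 and rpL17 at 3 and 4 DAP were nearly the same. GRMZM2G172300 had 97.8, 154 and 66.8 CPM at 2 DAP, 31, 33.9 and 31.4 CPM at 3 DAP and 29.2, 53.9 and 57.1 CPM at 4 DAP, where replicate 1 was the lowest of the 3 libraries.

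Another 5 genes were under 10% of their 2 DAP mean in the central cell but not in the embryo, namely GRMZM2G099408, GRMZM2G062318, GRMZM5G879055, GRMZM2G023650 and GRMZM2G150648. GRMZM2G062318 had 0.346, 1.04 and 1.15 CPM at 0 DAP, 1.23, 4.25 and 4.86 CPM at 1 DAP, 5.93, 14 and 7.64 CPM at 2 DAP and 1.25, 0.974 and 1.91 CPM at 3 DAP. All its 2 DAP libraries were above the rest, although the lowest of them was near replicate 3 of 1 DAP. GRMZM2G150648 had 142, 198 and 256 CPM at 0 DAP, 415, 1013 and 1143 CPM at 1 DAP, 1698, 2490.4 and 2994 CPM at 2 DAP and 863, 1882 and 1557 CPM at 3 DAP. Replicate 1 was its lowest library in each of these stages. GRMZM2G023650 averaged 10.4 ± 2.72 CPM at 2 DAP and 1.31 ± 2.27 CPM in the embryo (SD, n = 3).

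HDT1 (GRMZM2G159032, also listed as hdt103 and Zm-HD2c) encodes a histone deacetylase of the HD2 type, a family found in plants and known from the nucleolus. Its libraries gave 418, 439 and 436 CPM at 0 DAP, 451, 819 and 999 CPM at 1 DAP and 1774, 1560.3 and 1551 CPM at 2 DAP. They gave 765, 1045 and 975 CPM at 3 DAP and 477, 566 and 612 CPM at 4 DAP. The 2 DAP libraries lay close together and above every other endosperm library. The related hdt102 (GRMZM2G100146), with a score of 1.31 and no member, also had its highest mean at 2 DAP, 1389 CPM, with 1063 CPM at 3 DAP. Of the 7 deacetylase genes of other families that passed the floor, 4 were highest at 2 DAP, against 34.6% of all ranked genes. The median score of the 7 was 1.01, and nothing is read from this count. Among the 4 were hda110, at 199.7 CPM at 2 DAP, and hda113, at 58.2 CPM at 2 DAP and 57.5 CPM at 0 DAP.

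The ribosomal protein gene rps24 (GRMZM2G091383), of the small subunit, had 29.8, 56 and 73.5 CPM at 0 DAP, 36.4, 112 and 158 CPM at 1 DAP and 163, 227 and 254 CPM at 2 DAP. It had 52, 186 and 131 CPM at 3 DAP and 20.9, 46.2 and 67.5 CPM at 4 DAP. Replicate 1 was the lowest library of each stage, and replicate 2 at 3 DAP was above the lowest 2 DAP library. The gene listed as rpL17 (GRMZM2G102815), of the large subunit, was low and led by replicate 3, with 13.1, 13.3 and 32.7 CPM at 2 DAP and means of 9.26, 7.58, 10.3 and 10.3 CPM at 0, 1, 3 and 4 DAP. A second model named rpl17 (GRMZM2G702426), no member, was at 596 CPM at 2 DAP. Among 42 models with ribosomal names, 38 passed the floor and 35 of these (92.1%) had their highest endosperm mean at 2 DAP, against 34.6% of all ranked genes. The median score was 1.33 in that list and 0.854 over all ranked genes. Most of the list thus peaked at 2 DAP too flatly to rank among the 100, and RPL10 (GRMZM2G087233) missed by few places, at rank 103. Ribosomal names were picked from the reference table with these results known, so the list is no independent evidence of its direction. Over the 100 genes, replicate 1 was the lowest library in 59 at 1 DAP and 58 at 3 DAP, against 48.3% and 44.2% of all ranked genes, and its part in the result was not tested.

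The glutamine synthetase gene gln1 (GRMZM2G098290, also listed as gs2), whose enzyme binds ammonium into glutamine, had 7.05, 16.5 and 8.46 CPM at 2 DAP and means of 2.86, 4.35, 4.95 and 5.13 CPM at 0, 1, 3 and 4 DAP. Replicate 2 led, and the 2 DAP libraries overlapped with those of 4 DAP. The same names cover a second model, GRMZM5G885867, which was highest at 1 DAP, at 5.92 CPM. Of the 4 glutamine synthetase models past the floor, gln1 alone was highest at 2 DAP. The gene bZIP103 (GRMZM2G092609), named for the basic leucine zipper regulators, had 22.6, 14.7 and 20.7 CPM at 2 DAP and means of 5.27, 9.43, 11.1 and 9.62 CPM at 0, 1, 3 and 4 DAP. Of 5 bZIP genes past the floor it was the 1 with its highest mean at 2 DAP. The gene listed as peptidase (GRMZM2G162699) had 43, 33.1 and 37.9 CPM at 2 DAP, after 30.8, 14.1 and 16.8 CPM at 1 DAP, where replicate 1 was close to the 2 DAP level.

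The gene with the most reads was GRMZM2G096585. It had 2009, 1354 and 971 CPM at 0 DAP, 1919, 1813 and 2625 CPM at 1 DAP and 5615, 4092 and 5826 CPM at 2 DAP. It had 2956, 3024 and 2315 CPM at 3 DAP and 2019, 1501 and 1623 CPM at 4 DAP. All 3 libraries of 2 DAP were above the rest, though the gene was already high in the central cell. Of the 6 genes with the highest 2 DAP means, HDT1 and GRMZM2G096585 had no overlap, while GRMZM2G150648, GRMZM2G018228, GRMZM2G024811 and GRMZM2G069594 overlapped with 1 or more libraries of other stages. GRMZM2G024811 had 1495, 1319 and 793 CPM at 2 DAP, where replicate 3 was below replicate 1 of 3 DAP. GRMZM2G018228 had means of 872, 906, 1546, 911 and 441 CPM at 0 to 4 DAP. GRMZM2G069594 averaged 1082 ± 412 CPM at 2 DAP (SD, n = 3), and replicate 1 was its lowest library in every endosperm stage. GRMZM5G898314 and GRMZM2G013652 were at 905 ± 186 and 805 ± 175 CPM (SD, n = 3), with no overlap in either. GRMZM2G032847 had libraries close together, with 498, 443 and 446 CPM at 2 DAP.

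The tests below leave out the 2 DAP libraries, but they are not independent of the rule. It held the highest of the 0, 1, 3 and 4 DAP means low against 2 DAP, and that was the 3 DAP mean in 72 genes. The test was limma on log2(CPM + 1), a scale that understates the change of low genes, over 31783 genes, with a call at a Benjamini-Hochberg adjusted p below 0.05. All 100 genes were tested, which their 2 DAP libraries alone ensured. By the rule all 100 also pass a stricter filter of 5 CPM in at least 3 libraries. The 31783 genes include many that do not, so shares under that filter are given too. The shares called among all genes stand beside the counts of the 100 as a description, and nothing about the 100 genes as a set is read from the difference. Replicate numbers were checked for pairing, and the fit with a replicate block is given where it changed a count by more than 1.5 times. The comparisons of 3 DAP with 1 DAP and of embryo with endosperm also cross the change in how RNA was measured. In them that step cannot be told apart from the stage or the tissue.

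Between pollination and the first day, 1 DAP against 0 DAP, 27 of the 100 genes rose and 2 fell, against 10.3% called higher, 12.6% called lower and 22.9% called either way among all genes. The median log2 change was 0.53 over the 100 genes and -0.04 over all genes. With the filter of 5 CPM 28 rose and 2 fell, against 14.4% and 14.7% of the genes tested. With the replicate block 47 rose and 2 fell, against 15.4% and 18.7% of all genes. In plain CPM 42 rose and 1 fell, against 13.3% and 9.38%. In a fit of the 2 groups alone 15 rose and 1 fell, against 6.55% and 7%. Without all replicate 1 libraries 44 rose and 3 fell, against 13.5% and 14.1%. AC191691.3_FG011 rose most, with 82.4 ± 11.8 CPM at 1 DAP and 1.08 ± 1.05 CPM at 0 DAP (SD, n = 3), a log2 change of 5.43 ± 0.56 (SE, limma adjusted p = 3.15e-06). GRMZM2G172300 had 11.7, 19.5 and 20.5 CPM at 1 DAP and 0.346, 0.322 and 0.122 CPM at 0 DAP (log2 change 3.82, limma adjusted p = 1.57e-07). GRMZM2G333035 had 11.2, 13.5 and 16.1 CPM at 1 DAP and 0.0554, 0.0990 and 0.171 CPM at 0 DAP (log2 change 3.71, limma adjusted p = 4.02e-07). In each of these 3 genes all libraries of 1 DAP were far above those of 0 DAP, and the calls held in every alternative tried. GRMZM2G099408 had 1.90, 6.88 and 8.22 CPM at 1 DAP and at most 0.0277 CPM at 0 DAP (limma adjusted p = 0.0129), a call lost in 3 of 17 alternatives, namely without replicate 2 or replicate 3 of 1 DAP and with a pseudocount of 5 (adjusted p up to 0.119 over the alternatives, from 2.34e-12).

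The main fit called 2 of the 100 genes lower on the first day, before their peak. GRMZM2G021998 had 6.25, 4.74 and 6.70 CPM at 1 DAP and 19.6, 13.7 and 28.9 CPM at 0 DAP, a log2 change of -1.61 ± 0.34 (SE, limma adjusted p = 0.00239), before 33.2, 48.9 and 53.5 CPM at 2 DAP. GRMZM2G171408 had 0.112, 2.48 and 2.14 CPM at 1 DAP and 3.17, 3.36 and 5.85 CPM at 0 DAP (log2 change -1.12, limma adjusted p = 0.0449). The call of GRMZM2G171408 was lost in 10 of 17 alternatives, and the adjusted p lay between 0.00735 and 0.226 over all of them. Among the 10 were edgeR, DESeq2, plain CPM, and the fits without any 1 of the 0 DAP libraries or without replicate 1 of 1 DAP. Among the named genes HDT1 rose, at 756 ± 279 CPM at 1 DAP and 431 ± 11.3 CPM at 0 DAP (SD, n = 3; limma adjusted p = 0.0462). Without any 1 of the 0 DAP libraries, or replicate 2 or 3 of 1 DAP, its call was lost, as in 2 further alternatives, with an adjusted p of up to 0.216 over all alternatives, from 0.000555. The genes bZIP103 and peptidase also rose (limma adjusted p = 0.0246 and 0.0128), with changes of 1.79-fold and 2.25-fold, and the calls were lost in 5 and 4 of 17 alternatives, both without replicate 1 of 1 DAP (adjusted p up to 0.115 and 0.187 over the alternatives).

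Between the stages on either side of the peak, 3 DAP against 1 DAP, 9 of the 100 genes were higher at 3 DAP and 2 lower, against 11.9% called higher, 11.8% called lower and 23.7% called either way among all genes. The median log2 change was 0.26 over the 100 genes and 0.02 over all genes. The replicate block gave 18 higher and 5 lower, against 19.0% and 16.7% of all genes. Plain CPM moved the median of all genes to -0.13 and left 4 higher and 2 lower, against 7.66% and 15.8%. The fit of the 2 groups alone gave 10 higher and 2 lower, against 7.82% and 9.43%. With the filter of 5 CPM 10 were higher and 2 lower, against 17.2% and 13.1% of the genes tested. Without all replicate 1 libraries 14 were higher and 3 lower, against 12.8% and 13.6%. Without replicate 2 at 1 DAP the higher count was 5, against 9.44% of all genes. Without replicate 2 or replicate 3 at 3 DAP it was 4, against 9.08% and 8.83%. Without replicate 1 at 1 DAP the lower count was 4, against 11.5%. AC217264.3_FG001 was higher at 3 DAP, with 15.6 ± 0.409 CPM at 3 DAP and 0.623 ± 1.01 CPM at 1 DAP (SD, n = 3), a log2 change of 3.52 ± 0.40 (SE, limma adjusted p = 7.76e-06). GRMZM2G345189 was likewise higher, at 9.53 ± 3.11 CPM at 3 DAP and no read at 1 DAP (SD, n = 3; limma adjusted p = 4.06e-07). GRMZM2G043816 had 3.77, 16.7 and 11.9 CPM at 3 DAP and 1.34, 1.31 and 1.20 CPM at 1 DAP (limma adjusted p = 0.018), a call lost without replicate 2 or replicate 3 of 3 DAP (adjusted p from 9.42e-06 to 0.0872 over the alternatives). GRMZM2G171408 was higher again, with 5.70, 9.06 and 6.67 CPM at 3 DAP (log2 change 1.80, limma adjusted p = 0.00258). The 2 that were lower at 3 DAP were GRMZM2G162798 and THX11. GRMZM2G162798 averaged 13.3 ± 5.40 CPM at 3 DAP and 37.7 ± 11.5 CPM at 1 DAP (SD, n = 3; log2 change -1.47, limma adjusted p = 0.00355). THX11 averaged 3.10 ± 1.12 CPM at 3 DAP and 9.10 ± 1.33 CPM at 1 DAP (SD, n = 3; log2 change -1.33, limma adjusted p = 0.00578), and this call held in every alternative tried. The call of GRMZM2G162798 was lost without all replicate 1 libraries (adjusted p = 0.056, from 0.000193 over the alternatives).

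From 3 to 4 DAP, 12 of the 100 genes fell and 0 rose by limma, against 0.818% called lower, 1.67% called higher and 2.49% called either way among all genes. The median log2 change was -0.54 over the 100 genes and -0.01 over all genes. With the filter of 5 CPM 13 fell and 0 rose, against 1.7% and 2.05% of the genes tested. At an unadjusted p under 0.05, 45 of the 100 were lower and 1, GRMZM2G162798, was higher, against 6.60% and 6.66% of all genes. By edgeR 11 fell and 0 rose, against 0.752% and 1.29% of all genes, and by DESeq2 15 fell and 0 rose, against 2.24% and 2.72%. With the replicate block 33 fell and 0 rose, against 5.00% and 3.62%. Without all replicate 1 libraries 21 fell, against 1.80%. The fit of the 2 groups alone called 1 that fell, against 0.205% of all genes, and quantile normalization 7, against 0.617%. The count also rested on single libraries. Without replicate 2 of 3 DAP or replicate 2 of 4 DAP it was 1, against 0.176% and 0.214% of all genes. Without replicate 1 of 4 DAP it was 5, against 0.274%. Without replicate 3 of 3 DAP or replicate 3 of 4 DAP it was 7, against 0.444% and 0.614%. Plain CPM moved the median of all genes to 0.15 and left 6 that fell, against 0.390%. GRMZM2G376548 fell most, with 0.123, 0.609 and 0.558 CPM at 4 DAP and 5.60, 9.77 and 8.17 CPM at 3 DAP, a log2 change of -2.62 ± 0.46 (SE, limma adjusted p = 0.00286), and its call held in every alternative tried. GRMZM5G894564 and GRMZM2G322299, 2 models with nearly the same values, fell by log2 changes of -1.49 and -1.48 (limma adjusted p = 0.00739 and 0.00753). GRMZM2G177461 had 1.29, 2.99 and 2.64 CPM at 4 DAP and 5.93, 8.74 and 9.47 CPM at 3 DAP (log2 change -1.47, limma adjusted p = 0.0301). These calls were lost in 4, 4 and 8 of 17 alternatives, each of them without replicate 2 of 3 DAP or replicate 2 of 4 DAP, with adjusted p from 3.04e-05 to 0.0744, 3.21e-05 to 0.0744 and 0.00205 to 0.166 over the alternatives. THX11 fell further, to 0.588 ± 0.346 CPM at 4 DAP, against 3.10 ± 1.12 CPM at 3 DAP (SD, n = 3; limma adjusted p = 0.0296), though leaving out any 1 library of 4 DAP, or replicate 2 or 3 of 3 DAP, lost this call, as did a pseudocount of 5 and the fit of the 2 groups alone (adjusted p from 0.000394 to 0.173).

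**Figure D5:**
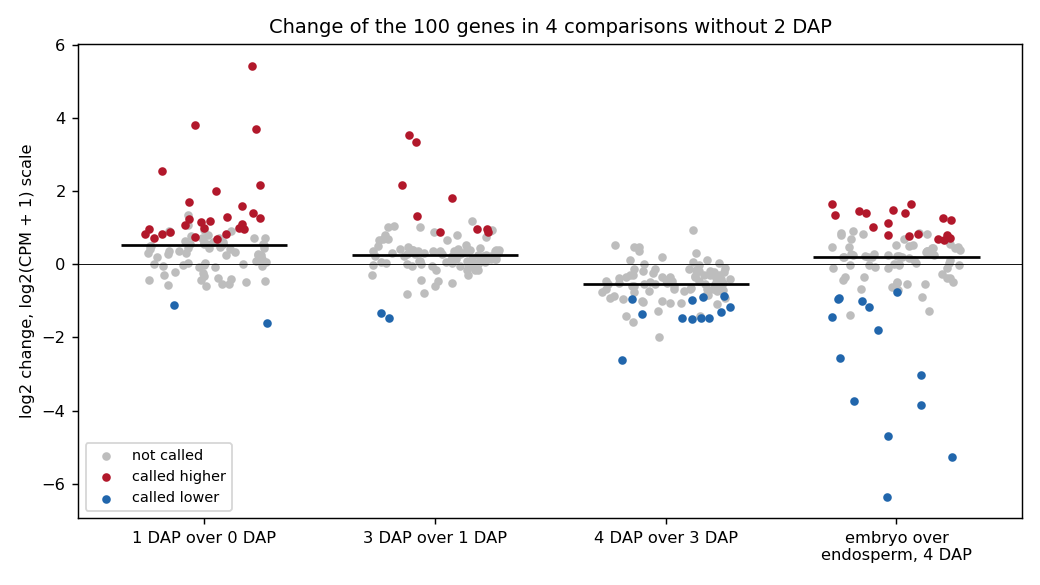
Each point is the log2 change of 1 of the 100 genes on the log2(CPM + 1) scale, with the first-named group over the second, coloured by the limma call, and the black line is the median. At 1 DAP over 0 DAP 27 were called higher and 2 lower, against 10.3% and 12.6% of all genes. At 3 DAP over 1 DAP the counts were 9 and 2, against 11.9% and 11.8%. At 4 DAP over 3 DAP they were 0 and 12, against 1.67% and 0.818%. In the embryo over the endosperm they were 18 and 14, against 12.4% and 11.1%. Nothing about the 100 genes as a set is read from these counts.

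In the embryo of 4 DAP, most of the genes were present at part of their 2 DAP endosperm level. The median gene had 35.9% of it, 29 genes had more than 50% and 17 had less than 10%. The genes were chosen for a high 2 DAP mean, which favours low shares in the embryo. The same shares over all ranked genes were not taken, and nothing is read from these numbers. GRMZM5G813217 was the 1 gene with a higher mean in the embryo, 275 ± 7.36 CPM in the embryo and 259 ± 38 CPM in the endosperm at 2 DAP (SD, n = 3), and the libraries of these groups overlapped. Of the 100 genes, 18 were higher in the embryo than in the endosperm of the same day and 14 lower, against 12.4% called higher, 11.1% called lower and 23.5% called either way among all genes. The rule had held the 4 DAP endosperm low, which favours higher embryo values, so nothing is read from this count. With the filter of 5 CPM 18 were higher and 14 lower, against 12.8% and 13.1% of the genes tested. Without replicate 1 of the 4 DAP endosperm 11 were higher and 11 lower, against 9.9% and 8.57% of all genes. Without its replicate 2 the counts were 10 and 11, against 9.84% and 8.23%. Without replicate 3 of the embryo they were 10 and 12, against 10.3% and 9.19%. The fit of the 2 groups alone gave 12 higher and 12 lower, against 10.6% and 9.63%.

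Among the genes lower in the embryo, AC191691.3_FG011 had 2.50 ± 3.12 CPM in the embryo and 237 ± 117 CPM in the endosperm (SD, n = 3), a log2 change of -6.36 ± 0.56 (SE, limma adjusted p = 1.75e-07). GRMZM2G172300 and GRMZM2G333035 averaged 0.194 and 0.113 CPM in the embryo, against 46.7 and 29 CPM in the endosperm (limma adjusted p = 6.84e-10 and 5.65e-09). GRMZM2G032528 had 0.444, 0.978 and 1.88 CPM in the embryo and 18.3, 28.9 and 40.3 CPM in the endosperm (log2 change -3.83, limma adjusted p = 1.2e-06). It was not restricted to later stages, with 23.7 CPM in the central cell. Each of these calls held in every alternative tried. Among the genes higher in the embryo, the models GRMZM5G894564 and GRMZM2G322299 led, at 21.6 and 21.5 CPM in the embryo and 6.14 and 6.14 CPM in the endosperm (limma adjusted p = 0.000386 and 0.000382). GRMZM2G519665 had 14.2, 13.4 and 14.1 CPM in the embryo and 4.05, 3.93 and 5.10 CPM in the endosperm (log2 change 1.48, limma adjusted p = 2.24e-05). GRMZM2G062638 had 111, 84.1 and 109 CPM in the embryo and 42.5, 31 and 35 CPM in the endosperm (log2 change 1.46, limma adjusted p = 0.000189). In both genes the embryo libraries were all above the endosperm libraries of the same day. Among the named genes, bZIP103 averaged 16.1 ± 2.94 CPM in the embryo and 9.62 ± 1.08 CPM in the endosperm (SD, n = 3; limma adjusted p = 0.0356), a call that 7 of 17 alternatives lost (adjusted p from 0.0124 to 0.133). The 6 genes with the most reads in the embryo were GRMZM2G096585, GRMZM2G150648, HDT1, GRMZM2G018228, GRMZM2G069594 and GRMZM2G024811, with means of 3226, 968, 772, 644, 416 and 391 CPM, and none of the 6 was called between embryo and endosperm.

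Several of the 100 models may not be separate genes. Of 4950 pairs, 5 followed each other with a Pearson r above 0.99 over the 18 libraries on the log2 scale, given as a description of libraries that share stage and depth. GRMZM2G322299 and GRMZM5G894564 had a ratio of 0.99 to 1.0 in all 18 libraries. GRMZM2G062318 and GRMZM5G879055 had a ratio of 1.00 to 1.17 in the 15 libraries where both reached 1 CPM. The ratio of GRMZM2G333035 to GRMZM2G172300 varied more, from 0.474 to 0.952 in 12 libraries. The ratio of GRMZM2G410815 to GRMZM2G410812 ran from 0.396 to 0.521, and that of AC195343.3_FG002 to GRMZM2G410812 from 0.184 to 0.258. How reads shared by similar or overlapping models were counted is not given in the sources used here, so these models are uncertain as separate members. GRMZM2G013652 and GRMZM2G014295 are neighbours with no entry between them in the later B73 assembly, and both peaked at 2 DAP, at 805 ± 175 and 388 ± 90.1 CPM (SD, n = 3). GRMZM2G150648 matched 2 entries, and its reads may belong to either.

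The limit of the set was not a natural break. The last members, GRMZM2G058098 and GRMZM2G150648, scored 1.672 and 1.669, and the first genes left outside, GRMZM5G836649 and GRMZM2G094828, scored 1.669 and 1.668. GRMZM5G836649 averaged 24.6 CPM at 2 DAP and 14.3 CPM at 3 DAP. GRMZM2G094828 averaged 8.87 CPM at 2 DAP and 4.92 CPM at 3 DAP. In all, 4235 of the ranked genes had their highest endosperm mean at 2 DAP. Leaving out 1 library kept 53 to 99 of the 100 members. The fewest were kept without replicate 1 at 2 DAP (53), replicate 1 or 2 at 3 DAP (59 each) and replicate 3 at 2 DAP (66), and 56 were kept when the score was built on medians.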

How the data were processed

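RNA-seq was made from laser-captured central cell, endosperm and embryo of 18 libraries, and RNA was amplified before sequencing, so limits for a count of 0 (3 reads) cover counting error only. The deposited signal values are in CPM per the file's name, and 1 table holds all libraries. Build B73 RefGen_v3 and the tools TopHat2 2.0.9, Trimmomatic, edgeR and bedtools 2.17.0 stand in the submitters' processing notes. What each tool did, the strand setting and how shared reads were counted is not given in the sources used here. The column totals differ between libraries, and dividing by 1 read's value gave whole reads for 100% of values (within 0.001 reads).

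Members were taken from group means. The main test was limma 3.58.1 (R 4.3.3) on log2(CPM + 1) over all 18 libraries, for genes at 1 CPM or more in at least 3 libraries, with Benjamini-Hochberg adjustment; edgeR 4.0.16 and DESeq2 1.42.0 were run on recovered reads as alternatives. The limma step was tested on simulated data. The members and lists were chosen with earlier results of these data known. Genes named were the 10 with the highest scores, the 10 with the highest 2 DAP means, the 6 with the highest embryo means, those with a gene name, the 4 called genes of largest log2 change in each direction and 2 on each side of the threshold; others were chosen after their values were seen.

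Replicates came from separate ears, and p-values rest on the spread between libraries within groups, pooled over the 6 groups. That spread holds differences between ears together with those of amplification and depth, and any effect that same-numbered libraries share. The labels do not link replicate numbers between stages. Still, same-numbered libraries of the compared groups deviated together in all 12 pairs, with a correlation of 0.2226 to 0.6957, which meets the criterion for paired numbers. The main fit, with every SE and adjusted p of a single gene, has no replicate term; counts from a fit with a replicate block stand beside it where they moved by over 1.5 times.

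Gene names were looked up by identifier in RefSeq's gene table for a newer B73 assembly, which matched 14444 of 38300 genes (37.7%). Builds differ, so no coordinates are given. Sequences, promoter motifs and description words were not used here.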

Additional observations from a re-analysis of the deposited data

How the results depend on the processing

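No called gene among the named ones had its log2 change turn sign under the alternatives tried, but the balance of higher and lower counts did turn in several settings. Among members in the embryo, for example, it became 10 and 11 without replicate 2 of the 4 DAP endosperm, against 9.84% and 8.23% of all genes. Without replicate 3 of the embryo it became 10 and 12, against 10.3% and 9.19%. Over all genes it became 4230 and 2980 at 1 DAP against 0 DAP in plain CPM. With the block it became 1150 and 1589 over all genes at 4 DAP against 3 DAP. Of the 100 members, 56 were kept with a score on medians and 64 without all replicate 1 libraries; leaving out 1 library kept 53 to 99, and all other settings 73 to 93. Plain CPM and the fits without all replicate 1 libraries were chosen after seeing the data. The cause of the changes below was not tested.

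For 1 DAP against 0 DAP, members called higher numbered 42 in plain CPM (13.3% of all genes) and 15 in a fit of the 2 groups alone (6.55%). They numbered 47 with the replicate block (15.4%) and 44 without all replicate 1 libraries (13.5%). Leaving out 1 library gave 19 to 30 (7.69% to 10.7%). Members called lower numbered 1 with a pseudocount of 5 (13.1% of all genes), plain CPM (9.38%), the 2-group fit (7%), edgeR (8.22%) and DESeq2 (11.6%). Leaving out 1 library gave 1 to 2 (9.33% to 10.7%). Over all genes the 2-group fit called 2081 higher and 2224 lower, and edgeR 2611 lower, against 3285 and 3991; leaving out 1 library gave 2444 to 3391 and 2965 to 3389.

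For 3 DAP against 1 DAP, members called higher numbered 4 in plain CPM (7.66% of all genes), 18 with the block (19%) and 14 without all replicate 1 libraries (12.8%). Leaving out 1 library gave 4 to 10 (8.83% to 10.2%). Members called lower numbered 5 with the block (16.7%) and 2 to 4 leaving out 1 library (9.11% to 11.5%). Over all genes, higher calls numbered 2436 in plain CPM, 2485 in the 2-group fit and 6046 with the block, against 3793 (2806 to 3242 leaving out 1 library). Lower calls numbered 2451 with a filter of 5 CPM, against 3748 (2897 to 3665).

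For 4 DAP against 3 DAP, members called lower numbered 7 after quantile normalization (0.617% of all genes), 6 in plain CPM (0.39%) and 1 in the 2-group fit (0.205%). They numbered 33 with the block (5%) and 21 without all replicate 1 libraries (1.8%). Leaving out 1 library gave 1 to 10 (0.176% to 0.705%). Over all genes, higher calls numbered 904 in plain CPM, 328 in the 2-group fit, 1150 with the block and 863 by DESeq2, against 532 (267 to 447). Lower calls numbered 124, 65, 1589 and 711 in the same settings and 571 without all replicate 1 libraries, against 260 (56 to 224).

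For the embryo against the endosperm, the counts of members stayed within 1.5 times except when 1 library was left out. The replicate block gave 27 higher and 18 lower, against 17.1% and 17.4% of all genes. Leaving out 1 library gave 10 to 18 higher (9.79% to 12.9%) and 11 to 12 lower (8.16% to 9.71%). Over all genes 2390 were higher with a filter of 5 CPM, against 3951 (3113 to 4090), and 5529 lower with the block, against 3524 (2593 to 3086). Depth limits the shallowest library, replicate 1 at 1 DAP, where 3 reads equal 0.335 CPM.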
